A study of Drosophila melanogaster with 26 samples.

Results

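NSL1 RNAi ovaries were compared with white RNAi ovaries over the whole annotated transcriptome, gene by gene, on the normalized reads of 3 NSL1 RNAi and 3 white RNAi libraries, 6 of the 12 ovary RNA-seq libraries held in the deposited tables. All 15340 annotated genes of the comparison were taken, whatever their values, and 9083 of them reached the minimum mean of 10 normalized reads and were tested. The remaining 6257 genes were below it and were not tested. In both groups nanos-GAL4, which is active in the female germline, drove a short hairpin RNA in Drosophila melanogaster: against white, an eye colour gene, in the control, and against nsl1 in the knockdown. The white hairpin sits at the attP2 site and the nsl1 hairpin at attP40 in a stock kept over CyO, so line, insertion site and knockdown cannot be told apart with a single line for each. F1 females were fed yeast before their ovaries were taken and pooled. The study describes the libraries of a group as coming from separate crosses and the NSL1 RNAi ovaries as rudimentary. The white RNAi columns carry the names of the nonvirgin record. The study names virgin white RNAi ovaries as its reference for NSL1 RNAi, and such libraries were not analysed here, so each fold change below is against the columns named as nonvirgin. The adjusted p-values measure the spread between these libraries only.

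The NSL complex is a chromatin regulator built around the histone acetyltransferase MOF, and it binds promoters of genes that most cells use. An ovary holds germline cells, which are the nurse cells and the oocyte, and somatic cells, which are the follicle epithelium and the muscle sheath around it. Nurse cells copy their genome many times over and load the oocyte with messenger RNA, including that of the cell cycle machinery used by the early embryo, whereas follicle cells build the eggshell and contribute to the yolk.

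nsl1, listed as wah, was at 6961, 6715 and 6409 normalized reads in the white RNAi libraries and at 3833, 3550 and 3516 in the NSL1 RNAi libraries. The groups did not overlap and the difference in nsl1 (wah) passed the test, but its log2 fold change of -0.88 (SE 0.06, adjusted p = 6.64e-07) was below the minimum of 1 on the log2 scale that was asked of a call. w, the target of the control hairpin, was at 190, 171 and 271 in the white RNAi libraries and at 1416, 1358 and 1410 in the NSL1 RNAi libraries, a log2 fold change of 2.75 (SE 0.16, adjusted p = 3.70e-07).

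Throughout, a gene is called when its Benjamini-Hochberg adjusted p from limma is under 0.05 and its log2 fold change lies beyond 1 in either direction. By this rule 2887 genes were higher in NSL1 RNAi, which is 31.8 percent of the genes tested, 1854 were lower, which is 20.4 percent, and 52.2 percent were called in one direction or the other. Without the fold minimum the shares were 41.1 percent higher and 48 percent lower. In the other knockdowns, set against the same white RNAi libraries, 8.46 percent of genes were called higher and 1.17 percent lower for NSL2 RNAi, and 29.6 and 14.6 percent for NSL3 RNAi. The 3 values of one group lay wholly apart from the 3 of the other in 90.5 percent of genes. A gene list therefore has to be read against a background in which most genes differ. The median log2 fold change of all genes was -0.13 with the deposited scaling and 0.02 after rescaling by the median of ratios over genes or by TMM, so shifts of a list are given beside -0.13. Whole libraries held 14507550 to 23021900 assigned reads, with Spearman correlations of 0.990 to 0.997 within groups and 0.793 to 0.834 between them.

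The cell types read in the tissue differed between the groups. Of 29 germline markers 28 were tested, 23 were lower and 0 higher, and their summed level was 408360 to 426292 in white RNAi and 106314 to 114513 in NSL1 RNAi. The 5 not called were armi at 0.84, tud at 0.62, grk at 0.21, shu at -0.30 and aub at -0.32. Of these all but grk passed the adjusted p alone. Much of the sum came from dhd, CycB and yl, with means of 71071, 65889 and 61094 in white RNAi and 3022, 10673 and 21301 in NSL1 RNAi. One germline marker, cup, was listed at 0 in every library. Somatic markers were higher. The 21 follicle cell markers, of which 20 were called higher, summed to 12268, 13440 and 29613 in white RNAi, where replicate 3 stood above the others, and to 130830 to 178668 in NSL1 RNAi.

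Markers of muscle, which the ovary sheath also holds, and of tissues beside the ovary differed as well. Muscle markers (19 of 21 tested were higher) summed to 14502 to 15542 in white RNAi and 288605 to 363192 in NSL1 RNAi, fat body markers (12 of 13 higher) to 5594 to 8272 and 61150 to 81058, and hemocyte markers (14 of 16 higher, 1 lower) to 10857 to 13206 and 179677 to 199832. Much of the hemocyte sum in NSL1 RNAi came from Ppn, vkg, Col4a1 and Pxn, with means of 48034, 38395, 38303 and 28065. In white RNAi the largest part was crq, which was not called, with a mean of 5968. Which cells these reads came from was not tested. Lsp1alpha and to of the fat body list and lz of the hemocyte list were at 0 in all white RNAi libraries. The remaining marker lists were only partly tested, and a marker with few reads in white RNAi passes the minimum mean only when it is high in NSL1 RNAi, so their counts are a description. Of 15 neuronal markers 8 were tested and 6 higher, and the sum of all 15 was 8183 to 8927 against 13383 to 14807. Most of that sum was unc-13, with means of 7337 in white RNAi and 10813 in NSL1 RNAi, and Syb, with 1071 and 1892. Neither unc-13 nor Syb was called. Of 10 reproductive tract markers 6 were tested, 5 higher and 1 lower, with sums of 2217 to 2331 against 9312 to 11620, and Send1, Send2 and lz were at 0 in white RNAi. Of 22 testis markers 5 were tested, 3 higher (mia, bol and fzo) and 1 lower (twe). At 0 were 12 of the 22 in white RNAi and 0 in NSL1 RNAi. The sum was 3.96 times lower in NSL1 RNAi. Most of it was twe, also in the mitosis list below, with means of 4231 in white RNAi and 539 in NSL1 RNAi. Of 22 gut and tubule markers 11 were tested and 5 higher. Their sums were 2.58, 403 and 7.83 in white RNAi, where replicate 2 stood apart, and 237 to 477 in NSL1 RNAi, so the groups overlapped. The count of 5 ran from 1 without NSL1 RNAi replicate 3 to 12 without white RNAi replicate 2, where more of them were tested. In such whole tissue RNA, fewer cells of a type and less RNA per cell cannot be told apart. These marker sums differ alongside every list described from here on, and their part in those results was not tested.

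**Figure D1:**
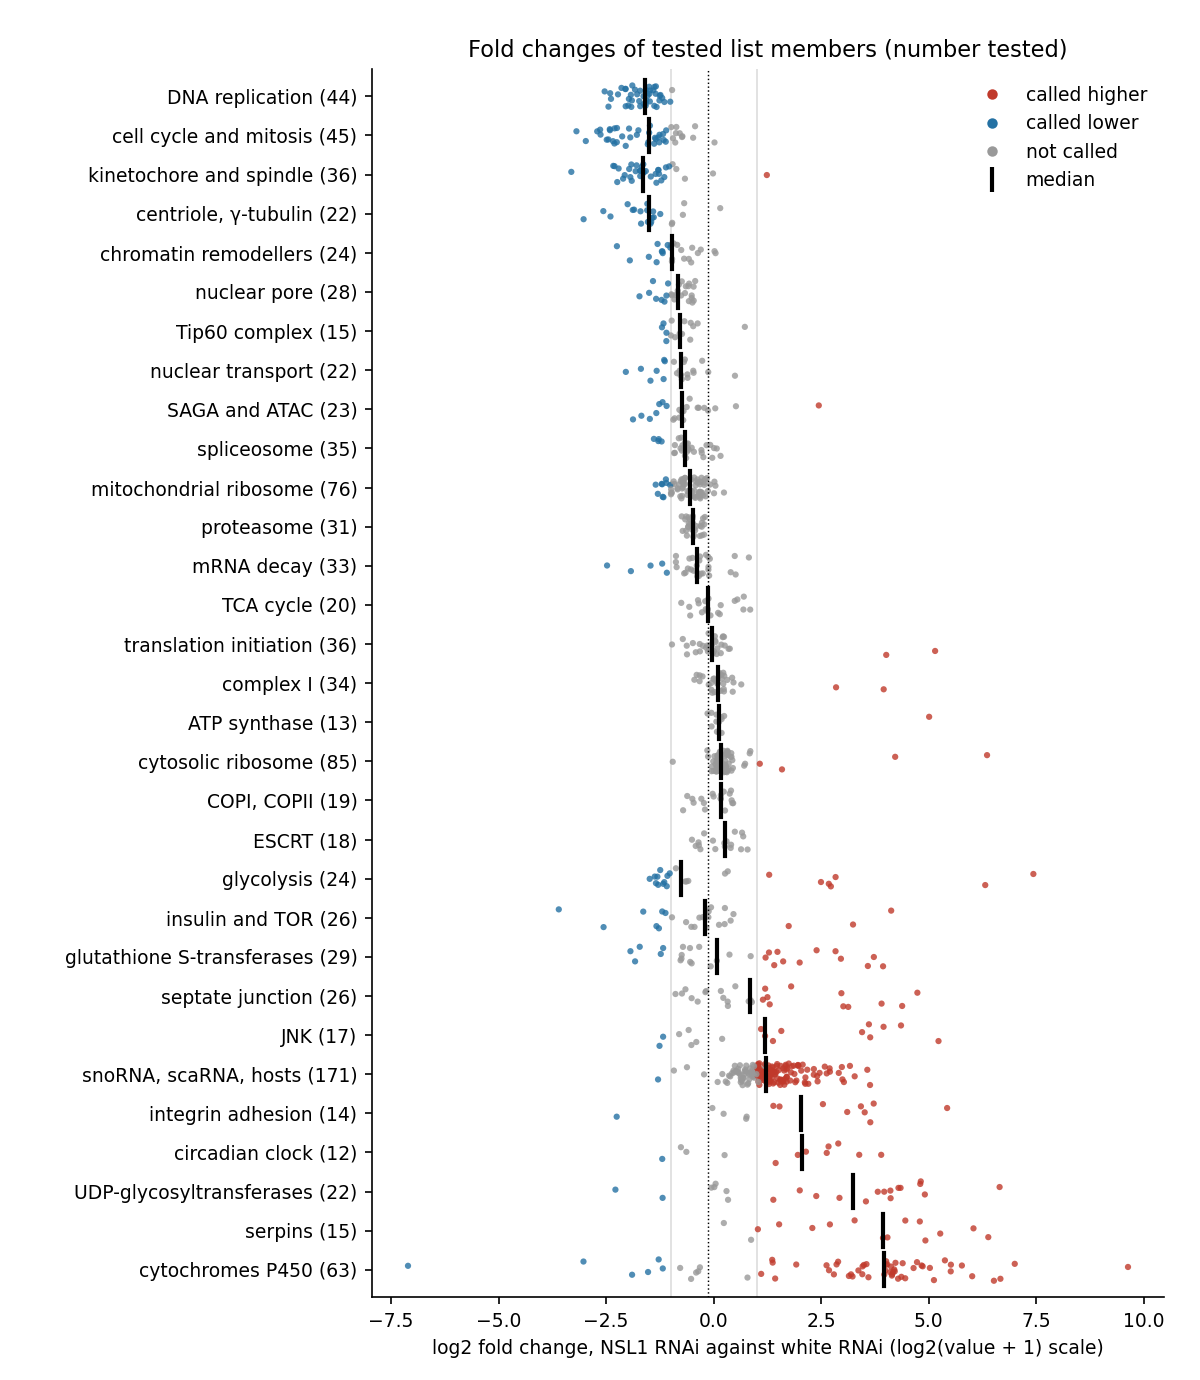
Log2 fold change of every tested member of 31 gene lists in NSL1 RNAi against white RNAi, on the log2(value + 1) scale. Each point is a gene, the black bars are list medians, the dotted line is the median of all genes (-0.13) and the grey lines mark the minimum of 1 in either direction. Lists of DNA replication and division lie to the left, those of the cytosolic ribosome and the respiratory chain near 0, and cytochromes P450, serpins and clock genes to the right. The mitochondrial ribosome has a median of -0.55.

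DNA replication genes fell almost without exception. The list holds the origin recognition complex, the MCM helicase, the GINS and Cdc45 factors, the polymerases and the clamp and its loader. Of 45 genes 44 were tested, 43 of the 44 fell and 0 rose, with a median log2 fold change of -1.60 beside -0.13 for all genes. Orc1, the largest subunit of the origin recognition complex, was at 6550, 6005 and 5524 normalized reads in white RNAi and at 1176, 1087 and 871 in NSL1 RNAi (log2 fold change -2.54, SE 0.11, adjusted p = 9.43e-08). Orc2 was at 2124, 2166 and 1920 against 398, 398 and 342 (-2.45, SE 0.09, adjusted p = 3.35e-08), and Cdc45, which activates the helicase, was at 4642, 4453 and 3986 against 811, 913 and 743 (-2.41, SE 0.09, adjusted p = 4.06e-08). For each of these the highest NSL1 RNAi library lay far below the lowest white RNAi library. The 1 tested gene that was not called, RPA3, the small subunit of the single strand binding protein RPA, was at 955, 861 and 727 against 401, 521 and 381, a log2 fold change of -0.97 (SE 0.14, adjusted p = 0.000179) that missed only the fold minimum.

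The regulators of mitosis fell in 34 of the 45 tested of 46 and rose in 0, with a median of -1.50. pim, the Drosophila securin that holds separase back until anaphase, was at 3884, 3968 and 3529 in white RNAi and 460, 417 and 370 in NSL1 RNAi (-3.19, SE 0.09, adjusted p = 1.36e-08). twe, the Cdc25 phosphatase of meiosis, was at 4310, 4495 and 3889 against 602, 509 and 505 (-2.97, SE 0.09, adjusted p = 1.56e-08), and CycB3, a mitotic cyclin, was at 5297, 4987 and 4586 against 864, 789 and 635 (-2.71, SE 0.11, adjusted p = 6.59e-08). These are factors that act at the division itself. Regulators of entry into S phase fell too, with CycE, the cyclin of that step, at 8498, 7600 and 6906 against 1542, 1448 and 1226 (-2.45, SE 0.10, adjusted p = 6.69e-08), Rbf2 at -2.49, E2f2 at -2.13, Cdk2 at -1.79, CycD at -1.50 and Rbf at -1.48. A few others of this step were not called. E2f1, the transcription factor that drives replication genes, was at 4329, 3937 and 3888 against 3096, 3243 and 2682 (-0.43, SE 0.08, adjusted p = 0.000694). Its partner Dp was at -0.48 (SE 0.06, adjusted p = 4.10e-05) and the G1 kinase Cdk4 at 0.02 (SE 0.06, adjusted p = 0.780), with overlapping groups of 1056, 1089 and 1145 against 1112, 1117 and 1101. CycE, Rbf2, E2f2, Cdk2, CycD, Rbf, E2f1, Dp and Cdk4 were all named after their values had been seen.

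Kinetochore and spindle genes fell in 31 of 36 tested of 37, and 1 rose, with a median of -1.63. cid, the centromeric histone CENP-A of the fly, was at 1614, 1466 and 1214 in white RNAi and 146, 167 and 119 in NSL1 RNAi (-3.31, SE 0.15, adjusted p = 1.14e-07), with no overlap. sub, a kinesin of the acentrosomal oocyte spindle, was at 3082, 3181 and 2757 against 642, 634 and 547 (-2.31, SE 0.08, adjusted p = 4.03e-08). The single rise belonged to Nnf1a, a kinetochore subunit, at 93.9, 94.5 and 104 against 214, 227 and 250 (1.23, SE 0.14, adjusted p = 2.77e-05). Its paralogue Nnf1b, named after its values had been seen, went the other way, with 569, 553 and 457 against 139, 150 and 126 (-1.92, SE 0.13, adjusted p = 1.11e-06). In white RNAi Nnf1b was therefore read more often than Nnf1a in every library and in NSL1 RNAi less often in every library, where lengths of the pair were not taken into account.

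Centriole and γ-tubulin ring genes fell in 17 of 22 and rose in 0, with a median of -1.50. gammaTub37C, the γ-tubulin supplied to the egg, was at 3062, 3195 and 2735 against 458, 358 and 301 (-3.02, SE 0.14, adjusted p = 1.25e-07), and spd-2, a centrosome scaffold, at 8516, 8046 and 7550 against 1444, 1476 and 1167 (-2.57, SE 0.09, adjusted p = 3.73e-08). Nearly level were Plp of this list and tacc of the spindle list, both centrosomal proteins. tacc was at 6120, 6420 and 6169 against 6364, 6180 and 5953 (-0.02, SE 0.05, adjusted p = 0.750) and overlapped, and Plp was at 3208, 3481 and 3357 against 3899, 3607 and 3652 (0.15, SE 0.05, adjusted p = 0.0266).

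Over the 4 lists together, 125 of 147 genes tested fell (85.0 percent, beside 20.4 percent of all genes) and 1 rose. Their summed level was 572570 to 625742 in white RNAi and 180851 to 200423 in NSL1 RNAi, 3.13 times lower. The summed germline markers were 3.80 times lower in the same libraries. The 2 sums are not separate, since both hold CycB, with means of 65889 in white RNAi and 10673 in NSL1 RNAi. Most of the falls were of moderate size, since at a minimum of 2 on the log2 scale 36 of the 147 would be called lower. The other knockdowns, which share the white RNAi libraries and so give no independent view, had medians of -0.25 in NSL2 RNAi and -1.53 in NSL3 RNAi over the same genes.

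**Figure D2:**
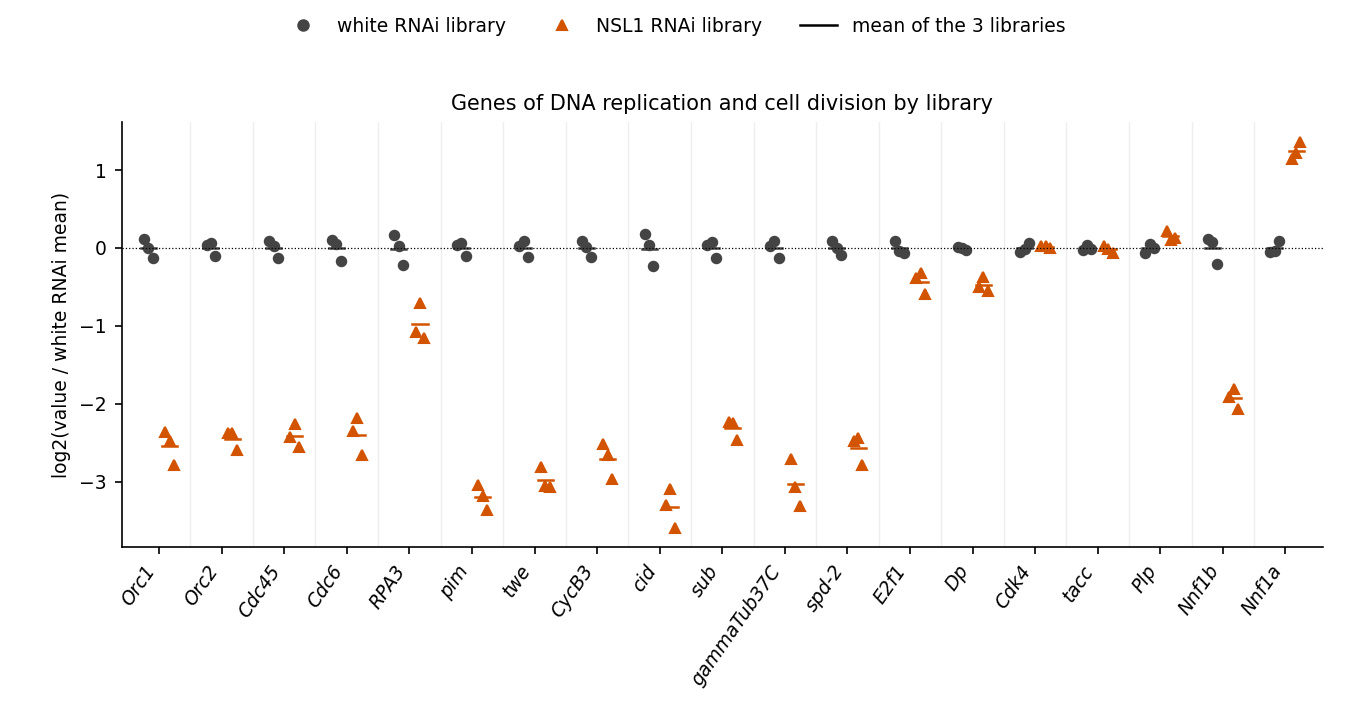
Reads of 19 replication and cell division genes in each library, as log2 of the value over the white RNAi mean. Circles are white RNAi libraries, triangles NSL1 RNAi libraries and short lines the means of 3. All triangles of cid, pim and gammaTub37C lie below those of E2f1, Dp and Cdk4, and those of Nnf1a lie above 0, at a log2 fold change of 1.23.

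The genes of oxidative phosphorylation were close to level. Of 94 genes of the respiratory complexes, the ATP synthase and the citric acid cycle 85 were tested, 3 rose and 0 fell, and the median was 0.12. Their summed reads were 247785 to 260494 in white RNAi and 261441 to 270339 in NSL1 RNAi. ATPsynbeta, a catalytic subunit of the ATP synthase, was at 26206, 27366 and 27067 against 27554, 27904 and 28813 (0.06, SE 0.05, adjusted p = 0.264). COX4 of complex IV was at 3868, 3850 and 3526 against 4477, 4186 and 4493 (0.23, SE 0.06, adjusted p = 0.00447), and UQCR-C2 of complex III at 4185, 3795 and 3726 against 4144, 3973 and 4278 (0.08, SE 0.06, adjusted p = 0.208). The citric acid cycle alone had a median of -0.13 over 20 genes with 0 calls, and the sign of that median changes with the scaling.

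Genes of the cytosolic and the mitochondrial ribosome had medians of opposite sign. Cytosolic ribosomal protein genes rose in 4 of 85 tested of 87 and fell in 0, with a median of 0.17. RpL3 was at 34875, 37022 and 40494 against 47866, 47776 and 51697 (0.39, SE 0.07, adjusted p = 0.000770). The mitochondrial ribosomal protein genes had a median of -0.55, with 9 of 76 tested of 77 fallen, 0 risen and 72 with a negative log2 fold change. The share fallen was 11.8 percent, under the 20.4 percent of all genes. mRpS18A was at 1441, 1457 and 1252 against 603, 557 and 472 (-1.35, SE 0.11, adjusted p = 2.68e-06), and mRpL10 at 1086, 1021 and 916 against 395, 409 and 420 (-1.30, SE 0.09, adjusted p = 9.29e-07). Both fell with no overlap between the groups. With DESeq2 the 9 falls became 5.

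The aminoacyl-tRNA synthetases load tRNAs with amino acids. Of the 14 with a mitochondrial name 6 fell, with a median of -0.84, and of the other 18 only 1 fell, with a median of -0.16. These are shares of 42.9 and 5.6 percent, beside 20.4 percent of all genes. ValRS-m was at 1146, 1124 and 1002 against 319, 372 and 332 (-1.67, SE 0.09, adjusted p = 3.29e-07). IleRS, named without the mitochondrial suffix, was at 8391, 8829 and 8572 against 8368, 8569 and 8710 (-0.01, SE 0.05, adjusted p = 0.873), with overlapping groups. The difference between the 2 sets of synthetases was not tested.

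Several large machines moved by less than the fold minimum but in 1 direction. All 31 tested of 32 proteasome genes were below 0, at -0.74 to -0.21 with a median of -0.48, and all 31 passed the adjusted p alone, where 48 percent of all genes did so in that direction. None was called, by the fold minimum. The proteasome median was -0.34 after rescaling by the median of ratios or by TMM, and -0.31 with DESeq2. Rpn5, a lid subunit, was at 7499, 8164 and 7097 against 5489, 4997 and 4707 (-0.58, SE 0.07, adjusted p = 6.07e-05). The 8 subunits of the CCT chaperonin, which folds actin and tubulin, likewise lay at -0.94 to -0.18 with 0 calls. Their median of -0.39 was -0.21 with DESeq2. For the vesicle coats medians were 0.16 over 19 COPI and COPII genes and 0.25 over 18 ESCRT genes, with 0 calls. They went both ways, with 10 above 0 and 9 below for COPI and COPII, and 11 above and 7 below for ESCRT. Beside the median of all genes, these lists lay 0.29 and 0.38 higher and the proteasome 0.36 lower, shifts of similar size.

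The cytosolic ribosomal protein genes that rose included RpLP0, at 1.07, and the gene copies RpS19b and RpS10a. RpS19b, a paralogue of RpS19a, was at 6.89, 10.5 and 10.4 normalized reads in white RNAi and at 826, 754 and 910 in NSL1 RNAi (6.35, SE 0.20, adjusted p = 2.32e-08), while RpS19a was at 18217, 18475 and 18478 against 20553, 20878 and 19995 (0.15, SE 0.05, adjusted p = 0.0125). RpS10a was at 0.862, 3.23 and 5.22 against 66.1, 51.6 and 88.5 (4.22, SE 0.47, adjusted p = 2.93e-05), and RpS10b was level at 0.10 (SE 0.07, adjusted p = 0.181). In each pair the copy with few reads rose and the copy with many did not. RpL22-like had 1 read over the white RNAi libraries and 691 over the NSL1 RNAi libraries, a ratio of 959 after normalization with a 95% counting interval of 171 to 37919, and RpL22 was at 0.41 (SE 0.08, adjusted p = 0.000734).

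Copies of mitochondrial and cap binding proteins differed too. ND-51 of complex I was at 3409, 3468 and 3187 against 3455, 3425 and 3788 (0.08, SE 0.06, adjusted p = 0.209), while its paralogues ND-51L1 (7.75, 9.70 and 7.83 against 75.9, 70.1 and 55) and ND-51L2 (6.89, 9.70 and 9.57 against 158, 133 and 154) rose with log2 fold changes of 2.84 (SE 0.26, adjusted p = 8.07e-06) and 3.95 (SE 0.24, adjusted p = 5.08e-07). ATPsynepsilonL, beside the epsilon subunit gene sun, had 3 reads over the white RNAi libraries and 142 over the NSL1 RNAi libraries (ratio 65.7, counting interval 22 to 322). The cap binding proteins eIF4E3 and eIF4E6 had 2 and 2 reads in white RNAi and 136 and 56 in NSL1 RNAi (ratios 94.3, interval 25.6 to 787, and 38.8, interval 10.3 to 329). eIF4E1, the main cap binding protein, was at -0.97 (SE 0.06, adjusted p = 5.30e-07), which is no call. eIF4E3 and RpL22-like are known from the testis. The abundant partner copies shown here, with ND-51L1, ND-51L2 and RpL22-like among the rest, were picked after their values had been seen, and reads shared between near-identical copies could be assigned to either.

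**Figure D3:**
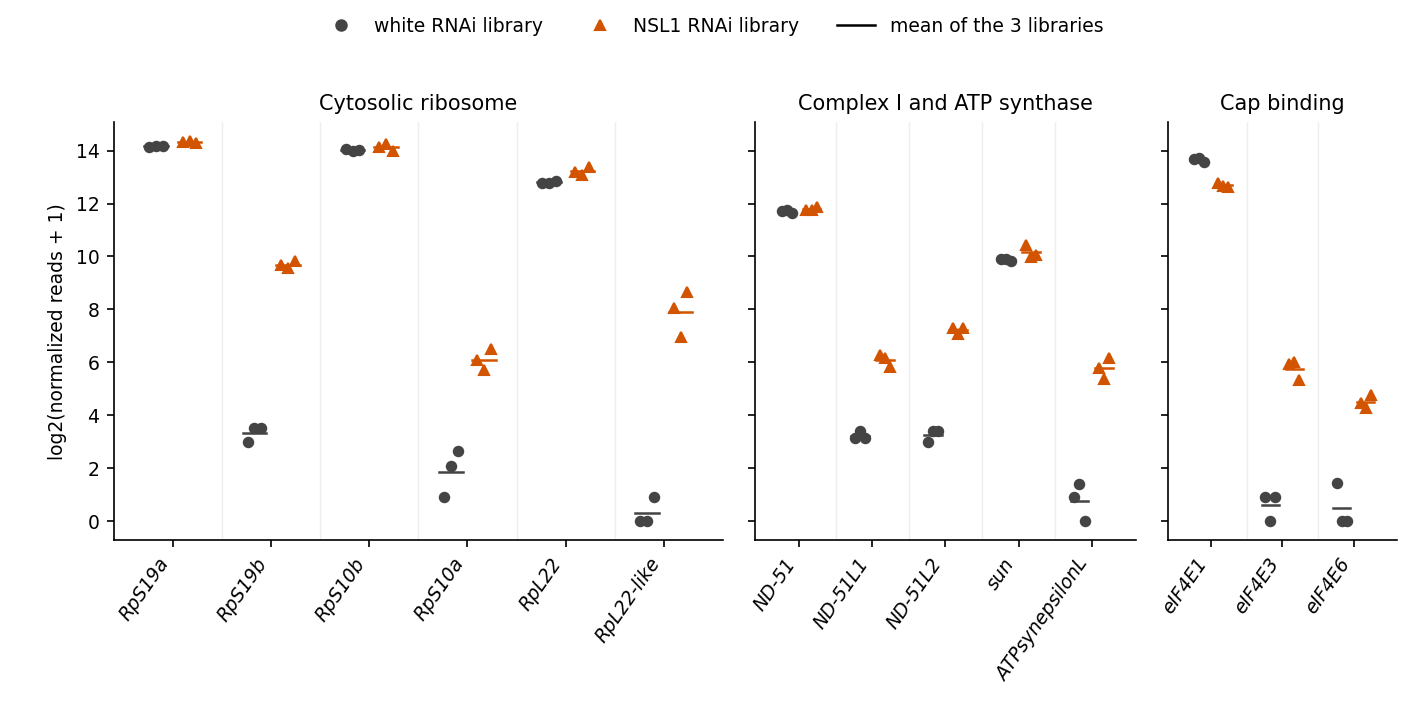
Normalized reads of paralogous subunits in each library, as log2(value + 1). Circles are white RNAi libraries, triangles NSL1 RNAi libraries and short lines the means. RpS19b, RpS10a, RpL22-like, ND-51L1, ND-51L2, ATPsynepsilonL, eIF4E3 and eIF4E6 rise from under 4 on this scale, whereas RpS19a, RpS10b, RpL22, ND-51 and sun stay near their level.

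Among chromatin regulators the falls outnumbered the rises. The shares called lower were 28.6 percent for the NSL complex, 41.7 for remodellers, 30.4 for SAGA and ATAC and 26.7 for Tip60. Of all genes 20.4 percent were called lower. mof, the acetyltransferase of the NSL complex, was at 2007, 1906 and 1767 in white RNAi and 600, 690 and 672 in NSL1 RNAi (-1.53, SE 0.08, adjusted p = 2.13e-07), and dgt1, which encodes NSL2, was at 1777, 1773 and 1506 against 781, 701 and 725 (-1.19, SE 0.08, adjusted p = 1.34e-06). All 7 genes of the complex were below 0, from -1.53 to -0.45, and 2 of the 7 were called. Rcd1, which encodes NSL3, was at -0.82 (SE 0.05, adjusted p = 7.45e-07) and MBD-R2 at -0.45 (SE 0.07, adjusted p = 0.000228).

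Nucleosome remodellers fell in 10 of 24 tested of 25 with a median of -0.97, led by Chd3 (4231, 4247 and 3715 against 920, 822 and 817, -2.25, SE 0.08, adjusted p = 2.74e-08). kis was level at 0.04 (SE 0.08, adjusted p = 0.610), with overlapping groups. SAGA and ATAC coactivator genes fell in 7 of 23 tested of 25, for example Ada2b at 3613, 3650 and 3208 against 1241, 1253 and 1240 (-1.48, SE 0.06, adjusted p = 7.46e-08). One rose, Taf12L, a paralogue of a TFIID subunit, at 16.4, 11.3 and 25.2 against 85.6, 78.7 and 130 (2.44, SE 0.33, adjusted p = 0.000108). Of 15 Tip60 genes 4 fell, Eaf6, MRG15, Ing3 and DMAP1, at -1.20 to -1.10. They sit close to the fold minimum, and the count of Tip60 genes called lower was 2 with other scalings and 1 with DESeq2.

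All 28 nuclear pore genes were below 0 and passed the adjusted p alone, from -1.73 to -0.43 with a median of -0.82, and 8 were called. Nup37 was at 1089, 1117 and 951 against 319, 328 and 303 (-1.73, SE 0.09, adjusted p = 2.26e-07), while the large filament protein Nup358 was at 20123, 19726 and 20146 against 14663, 14363 and 13102 (-0.51, SE 0.06, adjusted p = 2.60e-05). Of 22 transport factors 7 fell and 0 rose. The shares lower were 28.6 percent for the pore and 31.8 percent for transport, beside 20.4 percent of all genes. Pen, an importin alpha needed in the germline, was at 19880, 19692 and 17884 against 5127, 4701 and 4151 (-2.04, SE 0.08, adjusted p = 5.93e-08), and Rcc1, the exchange factor of Ran, at 13992, 13591 and 12466 against 4090, 4425 and 3877 (-1.69, SE 0.07, adjusted p = 5.43e-08). Karybeta3 went the other way without a call, at 0.49 (SE 0.06, adjusted p = 4.76e-05).

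In mRNA turnover and splicing few genes were called. The shares lower were 15.2 and 11.4 percent, under the 20.4 percent of all genes. me31B, the RNA helicase that holds maternal mRNA silent, was among the most abundant of them at 55254, 59148 and 52335 against 10448, 10014 and 9431 (-2.48, SE 0.07, adjusted p = 1.10e-08). Its partner tral was at 49637, 46989 and 43684 against 13160, 13297 and 10628 (-1.93, SE 0.09, adjusted p = 1.62e-07). Altogether 5 of 33 decay genes fell and 0 rose, with a median of -0.38, and Not1, the scaffold of the deadenylase, was at 16709, 16025 and 18032 against 24781, 23736 and 23686 (0.51, SE 0.06, adjusted p = 3.51e-05), no call. Of 35 spliceosome genes tested of 36, 4 fell with a median of -0.66, while Prp8 of the catalytic core was at -0.03 (SE 0.06, adjusted p = 0.589).

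Ribosome biogenesis had 4 falls and 0 rises in 32, with a median of -0.52. The share fallen was 12.5 percent here and 12.5, 9.1 and 22.2 percent for RNA polymerases I, II and III. Of all genes 20.4 percent fell. Nop60B, the pseudouridine synthase of ribosomal RNA, was at 20352, 20117 and 18984 against 8550, 9475 and 7915 (-1.20, SE 0.07, adjusted p = 4.60e-07). RNA polymerase I had 1 fall in 8, polymerase II 1 in 11 tested of 12, and polymerase III 2 in 9 tested of 10, Polr3I and Polr3D, whose falls of 1.06 and 1.05 on the log2 scale were not past the minimum under any other scaling or count test. The large subunits were near level, with Polr1A at 0.00 (SE 0.06, adjusted p = 0.970) and Polr2A at -0.34 (SE 0.05, adjusted p = 0.000168).

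Detoxification enzymes changed in both directions. Cytochromes P450, the monooxygenases that oxidise hormones, fatty acids and foreign compounds, rose in 51 of 63 tested of 83 and fell in 6, with a median of 3.97. Those are shares of 81.0 and 9.5 percent, beside 31.8 and 20.4 percent of all genes. A member with few reads in white RNAi reaches the minimum mean only when it is high in NSL1 RNAi, so the counts of this and the following families describe the members that passed and 20 P450 genes are not among them. The summed level of all 83 was 54084 to 57460 in white RNAi and 74871 to 79250 in NSL1 RNAi, 1.37 times higher, and Cyp4g1, which is also a fat body marker here, held a mean of 30525 of the latter. Without any minimum 60 of 79 were called higher and 6 lower.

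The P450 genes that fell included some with many reads in white RNAi. Cyp6a19 was at 15588, 16039 and 14435 in white RNAi and at 94.2, 145 and 98.2 in NSL1 RNAi (-7.11, SE 0.15, adjusted p = 6.85e-09), the lowest log2 fold change of all genes tested, and Cyp6a22 at 2495, 2497 and 2196 against 302, 285 and 290 (-3.03, SE 0.08, adjusted p = 9.62e-09). In the other knockdowns Cyp6a19 was at -2.10 for NSL2 RNAi and -2.27 for NSL3 RNAi. At the other end Cyp4p2 had 1 read over the white RNAi libraries and 959, 1038 and 928 normalized reads in NSL1 RNAi, a ratio of 3452 with a counting interval of 619 to 136391. Cyp4e3 had 0 reads in white RNAi and was at least 130-fold higher (84.4, 188 and 63.7 in NSL1 RNAi), and Cyp318a1 was at 2.58, 8.89 and 10.4 against 723, 585 and 727 (6.51, SE 0.41, adjusted p = 6.56e-07). Cyp1 and Cyp4e2 were not called, at -0.53 (SE 0.08, adjusted p = 0.000229) and -0.41 (SE 0.06, adjusted p = 0.000204).

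UDP-glycosyltransferases, which attach sugars to small molecules, rose in 15 of 22 tested of 35 and fell in 2. Their shares were 68.2 and 9.1 percent, beside 31.8 and 20.4 percent of all genes. Ugt36D1 was at 50.8, 66.3 and 60.9 against 1811, 1808 and 1780 (4.91, SE 0.12, adjusted p = 8.22e-09), while Ugt36E1 was at 1770, 1728 and 1602 against 368, 329 and 346 (-2.28, SE 0.08, adjusted p = 2.74e-08). Glutathione S-transferases, which couple glutathione to reactive compounds, were divided, with 12 of 29 tested of 35 risen, 5 fallen and a median of 0.07. Risen were 41.4 percent and fallen 17.2 percent, not far from the 31.8 and 20.4 percent of all genes. GstO1 was at 1285, 1453 and 1247 against 370, 414 and 423 (-1.72, SE 0.09, adjusted p = 2.31e-07) and GstO3 at 52.6, 64.6 and 40.0 against 445, 347 and 434 (2.96, SE 0.20, adjusted p = 1.15e-06). Of 9 ABC transporters tested of 11, 6 were higher and 1 lower, shares of 66.7 and 11.1 percent beside 31.8 and 20.4 percent of all genes. Mdr65, an efflux pump, was at 12.9, 20.2 and 20.9 against 578, 482 and 549 (4.85, SE 0.21, adjusted p = 9.65e-08), and w is itself a member.

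**Figure D4:**
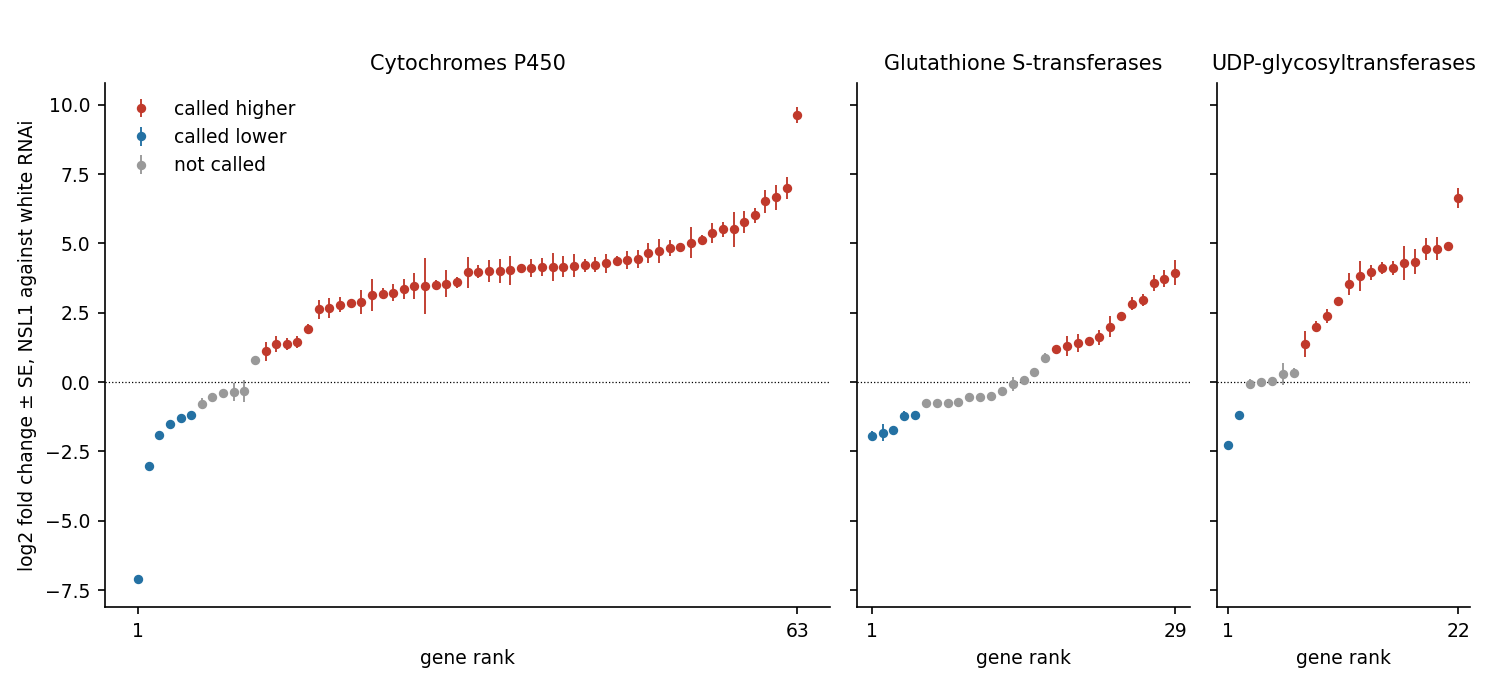
Log2 fold changes of the tested cytochromes P450 (63), glutathione S-transferases (29) and UDP-glycosyltransferases (22), each family sorted from lowest to highest, with standard errors. Red points were called higher, blue lower and grey not called. P450 genes run from Cyp6a19 at -7.11 to Cyp4p2 at 9.63, while the transferases of glutathione centre near 0.

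Redox genes were divided as well, with 3 of 20 tested of 23 risen and 4 fallen. These are 15 and 20 percent, beside 31.8 and 20.4 percent of all genes. dhd, the thioredoxin of oocyte and egg that acts on sperm protamine, was at 70982, 74469 and 67762 against 3516, 2830 and 2721 (-4.56, SE 0.09, adjusted p = 6.85e-09). Cat, the catalase that breaks down hydrogen peroxide, was at 929, 911 and 937 against 5836, 4448 and 4624 (2.41, SE 0.10, adjusted p = 6.09e-08), and Men, a source of NADPH, at 3536, 3440 and 3329 against 12679, 10095 and 12821 (1.78, SE 0.09, adjusted p = 1.91e-07). The regulator cnc (-0.19, SE 0.07, adjusted p = 0.0333) and the reductase Trxr1 (-0.09, SE 0.06, adjusted p = 0.213) were near level. TrxT, the thioredoxin of the testis, was a marginal rise, at 7.75, 8.08 and 4.35 against 18.4, 12.3 and 17.3 (1.16, SE 0.37, adjusted p = 0.0154), lost without white RNAi replicate 3 or with a pseudocount of 5.

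Metal handling genes rose in 8 of 14 tested of 20 and fell in 0. The share risen was 57.1 percent, beside 31.8 percent of all genes. MtnA, the main metallothionein, was at 306, 497 and 533 against 9687, 8049 and 8941 (4.35, SE 0.19, adjusted p = 8.62e-08). Tsf1, the transferrin of the blood, was at 92.2, 133 and 133 against 1145, 788 and 1217 (3.12, SE 0.20, adjusted p = 8.18e-07). The zinc exporter ZnT63C and the copper pump ATP7 were not called, at -0.36 (SE 0.07, adjusted p = 0.00123) and -0.17 (SE 0.06, adjusted p = 0.0178).

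Of 24 genes of glycolysis, glycogen and gluconeogenesis 11 fell and 7 rose, with a median of -0.77. These are 45.8 and 29.2 percent, beside 20.4 and 31.8 percent of all genes. The falls were in abundant enzymes of the main path, with Tpi at 10644, 10192 and 8941 against 3574, 3352 and 3666 (-1.49, SE 0.07, adjusted p = 1.51e-07) and Gapdh2 at 41038, 41452 and 35939 against 16053, 14258 and 16386 (-1.34, SE 0.08, adjusted p = 4.40e-07). UGP and AGBE, which make glycogen, fell by 1.31 (SE 0.08, adjusted p = 4.40e-07) and 1.37 (SE 0.07, adjusted p = 2.45e-07) on the log2 scale. Fewer of these falls passed with DESeq2, 6 in place of 11. Rises were not confined to enzymes that branch off this path. They included the hexokinase Hex-C, at 2.72 (SE 0.30, adjusted p = 2.30e-05), and the trehalase Treh, at 2.49 (SE 0.09, adjusted p = 4.26e-08). Ldh, which turns pyruvate into lactate, was at 2.58, 5.66 and 2.61 against 396, 253 and 426 (6.31, SE 0.33, adjusted p = 2.41e-07), and Pepck1, an enzyme of gluconeogenesis, was at 31.9, 51.7 and 50.5 against 8336, 8048 and 6822 (7.43, SE 0.18, adjusted p = 8.03e-09). Tps1, which makes the blood sugar trehalose, was at 177, 328 and 231 against 1759, 1079 and 2573 (2.83, SE 0.32, adjusted p = 2.72e-05).

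Of 6 sugar transporters tested of 10, 3 rose and 3 fell. Each is 50 percent, beside 31.8 percent higher and 20.4 percent lower of all genes. sut1 was at 3694, 3810 and 3457 against 865, 935 and 773 (-2.09, SE 0.08, adjusted p = 4.49e-08), and nebu at 7045, 6746 and 6500 against 2008, 1929 and 1826 (-1.82, SE 0.06, adjusted p = 1.93e-08). Tret1-1, a trehalose transporter, was at 384, 334 and 380 against 2177, 1699 and 2242 (2.47, SE 0.12, adjusted p = 1.29e-07).

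Of 21 lipid synthesis genes tested of 24, 6 rose (28.6 percent, beside 31.8 percent of all genes) and 1 fell. FASN3 was at 91.3, 128 and 147 against 5387, 4908 and 4444 (5.34, SE 0.16, adjusted p = 1.90e-08) and FASN2 at 50, 92.1 and 68.7 against 1791, 1647 and 1647 (4.61, SE 0.20, adjusted p = 8.20e-08). These copies are known from oenocytes, the hydrocarbon producing cells of the body wall. The elongase eloF rose by 5.06, the lipid droplet protein Lsd-1 by 4.32 and the phosphatidate phosphatase Lpin, named after its values had been seen, by 1.56 on the log2 scale. The fall was in mdy, which makes triglyceride, at -1.08, a call that was lost with every other scaling and count test. ACC, which supplies the substrate of all fatty acid synthesis, overlapped between the groups at -0.11 (SE 0.08, adjusted p = 0.195). In the list of fatty acid oxidation 1 of 17 rose, bbg, which encodes a PDZ scaffold protein of epithelia and not an oxidation enzyme, and 1 fell. The fall was in bgm, a long chain acyl-CoA synthetase, at 4357, 4415 and 4030 against 932, 864 and 729 (-2.35, SE 0.09, adjusted p = 5.33e-08), while Mtpbeta of the thiolysis step was at -0.11 (SE 0.05, adjusted p = 0.0716).

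Of 17 genes of stress signalling through JNK, the kinase cascade of wound repair and cell death, 10 rose and 2 fell. Their median was 1.19, and the shares were 58.8 and 11.8 percent, beside 31.8 and 20.4 percent of all genes. The largest rises were in a ligand, a receptor, a transcription factor and a target. egr, the TNF ligand, was at 75.8, 80.8 and 118 in white RNAi and 1484, 1270 and 1459 in NSL1 RNAi (3.95, SE 0.17, adjusted p = 8.57e-08), and wgn, a receptor for it, was at 76.7, 85.6 and 129 against 2015, 1843 and 2006 (4.35, SE 0.18, adjusted p = 6.53e-08). kay, the fly Fos, was at 424, 445 and 510 against 6215, 5620 and 5345 (3.64, SE 0.09, adjusted p = 7.78e-09). The groups overlapped in none of these 3. Mmp1, a matrix protease and a target of the pathway, was at 17.2, 18.6 and 23.5 against 820, 677 and 821 (5.23, SE 0.17, adjusted p = 2.70e-08). The kinases between ligand and transcription factor went in both directions. bsk, the JNK itself, was at 415, 402 and 457 against 1328, 1202 and 1261 (1.57, SE 0.08, adjusted p = 1.99e-07), and Ask1 rose by 1.10 (SE 0.09, adjusted p = 2.65e-06), both named after their values had been seen. msn was at 0.20 (SE 0.04, adjusted p = 0.00255), Tak1 at -0.40 (SE 0.05, adjusted p = 8.83e-05), Mkk4 at -0.80 (SE 0.06, adjusted p = 1.68e-06) and slpr at -1.18 (SE 0.06, adjusted p = 1.95e-07). In NSL2 RNAi egr, kay and Mmp1 were at 1.05, 0.36 and 1.93. The median of all 17 JNK genes was -0.02 in NSL2 RNAi and 1.38 in NSL3 RNAi.

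Among genes of cell death, rpr was at 1.72, 3.23 and 1.74 against 64.8, 49.2 and 74.5 (4.32, SE 0.34, adjusted p = 2.82e-06), hid at 143, 139 and 211 against 489, 805 and 682 (2.00, SE 0.22, adjusted p = 2.37e-05), and skl had 3 reads in white RNAi and 63 in NSL1 RNAi (ratio 29.1, counting interval 9.52 to 145). These encode antagonists of the caspase inhibitor Diap1, which itself was at 0.26 (SE 0.05, adjusted p = 0.00150) and not called. Xrp1, a bZIP factor of ribosome and stress responses, was at 394, 524 and 585 against 4370, 3673 and 4496 (3.07, SE 0.14, adjusted p = 1.21e-07), but its partner Irbp18 was at 336, 364 and 330 against 403, 413 and 344 (0.17, SE 0.11, adjusted p = 0.168). p53 was at 675, 625 and 646 against 476, 558 and 525 (-0.32, SE 0.09, adjusted p = 0.00704). lok, the Chk2 kinase, fell from 13621, 14514 and 13620 to 3165, 3239 and 2861 (-2.17, SE 0.06, adjusted p = 1.31e-08), and mei-41, the ATR kinase, by 1.2 (SE 0.05, adjusted p = 1.03e-07) on the log2 scale. Over the list of 10 tested of 11, 4 rose and 3 fell. These are 40 and 30 percent, beside 31.8 and 20.4 percent of all genes.

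Of 25 genes of folding in the endoplasmic reticulum 2 rose and 2 fell, with a median of -0.33. Each is a share of 8 percent, under the 31.8 percent higher and 20.4 percent lower of all genes. crc, the fly ATF4, was at 5566, 5842 and 6179 against 15818, 15516 and 16704 (1.45, SE 0.06, adjusted p = 5.28e-08), and Xbp1 at 3915, 4212 and 3878 against 8425, 7662 and 8656 (1.04, SE 0.06, adjusted p = 4.53e-07). PEK, a kinase that acts upstream of ATF4, fell by 1.47 (SE 0.05, adjusted p = 4.22e-08) and the chaperone Hsc70-3 was at -0.53 (SE 0.06, adjusted p = 3.19e-05). Among 23 autophagy genes tested of 24 1 rose, Atg8a, the ubiquitin-like protein of the autophagosome, at 1620, 1513 and 1578 against 4988, 4777 and 5078 (1.66, SE 0.05, adjusted p = 2.02e-08). The falls of Atg12 and Atg16 (1.01 and 1.05) were not past the minimum under any other scaling or count test.

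Of 26 insulin and TOR genes tested of 29, 7 were lower (26.9 percent, beside 20.4 percent of all genes) and 3 higher (11.5 percent, beside 31.8), and the median of -0.21 was close to that of all genes. Ilp8, the relaxin-like peptide known from follicle cells at ovulation, was at 2397, 2503 and 2077 against 311, 136 and 162 (-3.60, SE 0.26, adjusted p = 1.74e-06). slif, an amino acid transporter, was at 4750, 4834 and 4133 against 794, 770 and 754 (-2.56, SE 0.07, adjusted p = 1.27e-08). Ilp6, the insulin-like peptide of the fat body, was at 43.1, 69.5 and 91.3 against 1172, 1178 and 1102 (4.13, SE 0.24, adjusted p = 4.01e-07), and Thor, the 4E-BP translation repressor, at 154, 131 and 234 against 2415, 1623 and 1030 (3.24, SE 0.31, adjusted p = 9.60e-06). The kinase Tor was at -0.16 (SE 0.06, adjusted p = 0.0248).

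Notch and Hippo genes also went both ways. Of 23 Notch genes tested of 27, 5 were higher (21.7 percent, beside 31.8 percent of all genes) and 6 lower (26.1 percent, beside 20.4). The receptor N overlapped at 12088, 11455 and 11650 against 11935, 13437 and 12059 (0.09, SE 0.06, adjusted p = 0.190), its ligand Dl was at 3489, 3268 and 3206 against 1127, 1621 and 1172 (-1.36, SE 0.13, adjusted p = 8.05e-06), and the other ligand, Ser, was at 0.862, 1.62 and 1.74 against 34.3, 39.3 and 43.2 (4.07, SE 0.35, adjusted p = 4.58e-06). fng, which sugars the receptor and so sets which ligand it answers to, was at 104, 131 and 151 against 1294, 897 and 1242 (3.14, SE 0.18, adjusted p = 3.80e-07). Of 20 Hippo genes tested of 21, 8 rose (40 percent, beside 31.8) and 2 fell (10 percent, beside 20.4). Rises included genes that act at the membrane, with ds at 12.9, 12.1 and 18.3 against 628, 638 and 500 (5.27, SE 0.21, adjusted p = 5.64e-08) and ex at 170, 144 and 249 against 1315, 1147 and 1009 (2.65, SE 0.19, adjusted p = 1.77e-06), while the core kinase wts was at -0.46 (SE 0.06, adjusted p = 6.16e-05).

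Of 12 circadian clock genes tested of 13, 8 rose and 1 fell, with a median of 2.05. Shares were 66.7 and 8.3 percent, beside 31.8 and 20.4 percent of all genes. tim was at 462, 598 and 751 against 3842, 4509 and 4950 (2.90, SE 0.17, adjusted p = 3.83e-07), vri at 104, 144 and 218 against 1876, 2343 and 2493 (3.89, SE 0.24, adjusted p = 6.00e-07), and cry, the light sensor, at 118, 136 and 141 against 1512, 1154 and 1498 (3.38, SE 0.13, adjusted p = 5.28e-08). tim and vri are targets of the activator made of Clk and cyc. Clk, named after its values had been seen, was at 59.4, 63.8 and 129 against 565, 521 and 405 (2.63, SE 0.29, adjusted p = 2.37e-05), and cyc was at 2194, 2223 and 2029 against 1408, 1417 and 1320 (-0.64, SE 0.06, adjusted p = 9.47e-06). The kinase dco fell by 1.2 (SE 0.07, adjusted p = 4.33e-07). Hours of dissection are not given in the sources used here, so time of day was not tested.

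**Figure D5:**
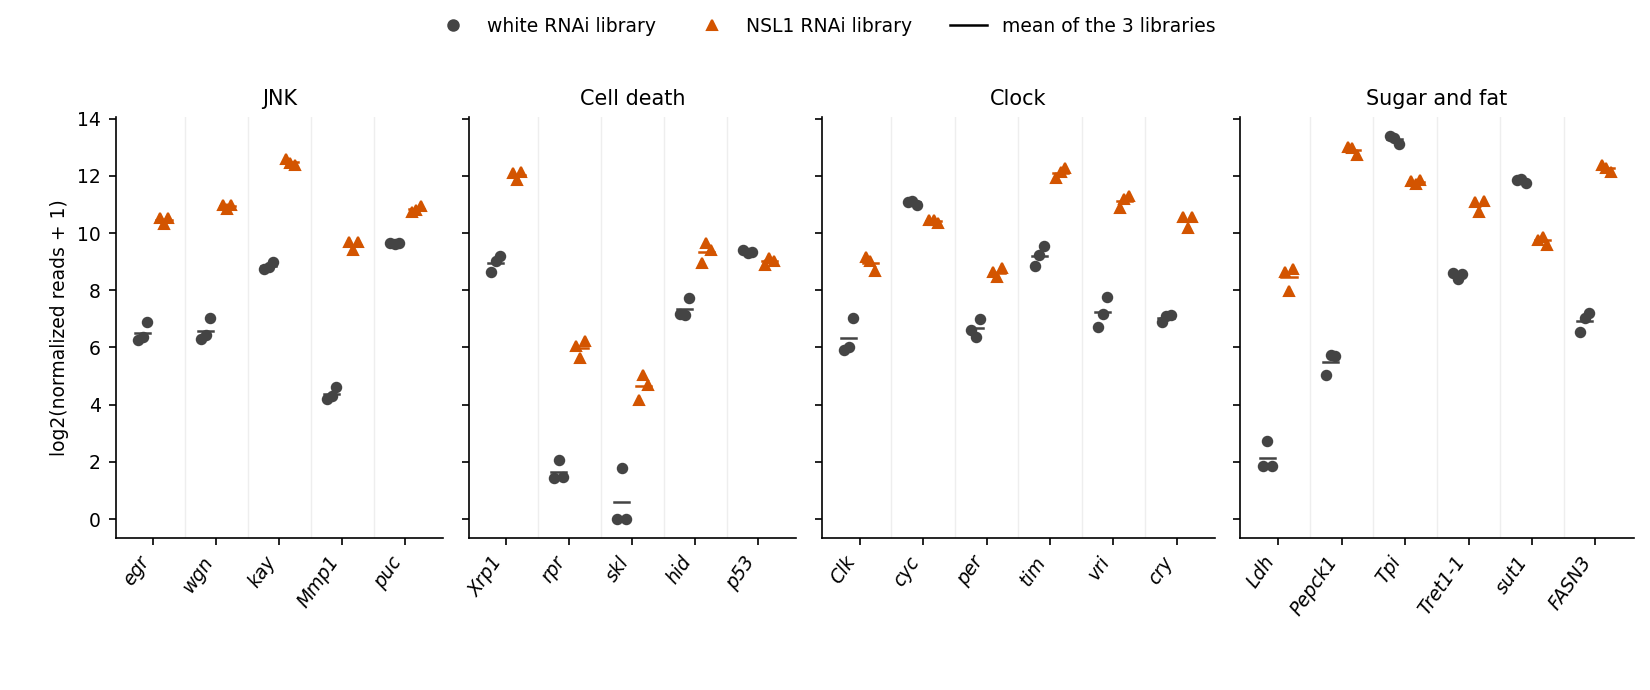
Normalized reads of JNK, cell death, clock and sugar and fat genes in each library, as log2(value + 1). Circles are white RNAi libraries, triangles NSL1 RNAi libraries and short lines the means. All triangles of egr, wgn, kay, Xrp1, rpr, vri, cry, Ldh and Pepck1 lie above the circles of the same gene, and those of p53, cyc, Tpi and sut1 lie below.

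Lists of epithelial genes share members with the follicle cell markers, Fas3 with the septate junction list and Cad99C with the polarity list. Septate junction genes, whose products seal epithelia, rose in 11 of 26 and fell in 0, with a median of 0.84. That is 42.3 percent higher, beside 31.8 percent of all genes. cora was at 883, 897 and 1101 against 15151, 12442 and 15502 (3.90, SE 0.11, adjusted p = 1.32e-08), and nrv2, a sodium pump subunit of the junction, at 99.9, 117 and 166 against 3323, 2979 and 3795 (4.73, SE 0.18, adjusted p = 4.47e-08). Mcr was not called at -0.18 (SE 0.05, adjusted p = 0.00854). Integrin adhesion genes rose in 9 of 14 tested of 15 and fell in 1. The shares were 64.3 and 7.1 percent, beside 31.8 and 20.4 percent of all genes. The alpha subunit if, also used at muscle attachment, was at 48.2, 73.5 and 90.5 against 3226, 2634 and 3135 (5.43, SE 0.21, adjusted p = 4.99e-08). The fall was in Fit2, a kindlin (1992, 2041 and 1756 against 371, 425 and 413, -2.26, SE 0.09, adjusted p = 4.99e-08). Its relative Fit1 was at 0.77 (SE 0.05, adjusted p = 1.41e-06) and not called. Of 19 polarity and cadherin genes tested of 23, 6 were higher, a share of 31.6 percent beside 31.8 percent of all genes, and 1 was lower, par-6 at -1.13, a call lost with other scalings and DESeq2. The catenin arm was at -0.18 (SE 0.06, adjusted p = 0.0174).

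Genes of body patterning went in both directions. bcd, the maternal anterior determinant, was at 2672, 2525 and 2303 against 278, 291 and 242 (-3.21, SE 0.09, adjusted p = 1.56e-08), and the maternally loaded cad and hb fell by 3.02 (SE 0.08, adjusted p = 1.10e-08) and 2.21 (SE 0.06, adjusted p = 1.56e-08) on the log2 scale. The Hox genes of the trunk rose. abd-A was at 31, 37.2 and 40.0 against 2059, 1876 and 1922 (5.73, SE 0.13, adjusted p = 7.49e-09), Antp at 9.48, 13.7 and 20 against 652, 605 and 695 (5.46, SE 0.25, adjusted p = 1.21e-07), and Abd-B at 0.862, 3.23 and 6.09 against 104, 118 and 123 (4.92, SE 0.47, adjusted p = 9.14e-06). Only 8 of the 13 homeotic and related genes were tested, 5 higher and 1 lower, and of 22 segmentation genes 4 were tested. Among early tissue regulators esg, a Snail family factor, had 0 reads in white RNAi and was at least 170-fold higher at 144, 162 and 126, and dpp, a BMP ligand, was at 37.9, 46.1 and 75.7 against 1183, 899 and 1076 (4.33, SE 0.24, adjusted p = 3.33e-07). Of that list 9 of 31 were tested, 6 higher and 2 lower.

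Families that are nearly silent in white RNAi ovaries could be followed only where reads were present. Cuticle proteins of the Cpr, Lcp and Twdl types number 122, and 74 had no read in white RNAi. The 11 that reached the minimum mean were higher, and the summed level of all 122 was 33.6 to 38.3 against 642 to 747. Cpr11A had 0 reads in white RNAi and was at least 122-fold higher (132, 73.8 and 103). Odorant binding proteins, 51 genes with 12 tested and 11 higher, were led by Obp99b (0.862, 3.23 and 3.48 against 587, 1006 and 784, 7.88, SE 0.37, adjusted p = 1.37e-07), a protein known from the fat body. Of 179 odorant, taste and ionotropic receptors 14 were tested, 9 higher and 1, Ir76a, lower (129, 141 and 150 against 41.6, 35.6 and 81.0, -1.48, SE 0.30, adjusted p = 0.00121), so 165 stayed below the minimum.

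Secreted and membrane families gave larger numbers. Serpins, inhibitors of serine proteases, were higher in 13 of 15 tested of 27, for example Spn77Ba, a brake on melanisation in the trachea, at 12.1, 19.4 and 24.4 against 628, 482 and 617 (4.92, SE 0.26, adjusted p = 2.35e-07). Tetraspanins were higher in 15 and lower in 2 of 23 tested of 34. The shares higher were 86.7 percent for serpins and 65.2 percent for tetraspanins, beside 31.8 percent of all genes. Of the tetraspanins 8.7 percent were lower, beside 20.4 percent of all genes. Tsp42Ed was at 11.2, 22.6 and 23.5 against 960, 762 and 972 (5.54, SE 0.27, adjusted p = 1.72e-07), and Tsp66E at 2994, 2987 and 2687 against 467, 536 and 507 (-2.52, SE 0.08, adjusted p = 1.68e-08). The Turandot stress peptides rose in the 3 tested of 7, but 1 call was left without NSL1 RNAi replicate 3, which alone had 66.9 of TotC beside 9.79 and 2.46.

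Of 273 snoRNAs, the guides of ribosomal RNA modification, 152 were tested, with a median of 1.28. Called higher were 108 of the snoRNAs (71.1 percent, beside 31.8 percent of all genes) and lower 0. The summed level of these with the scaRNAs and Uhg host genes was 104570 to 151511 in white RNAi and 223728 to 262291 in NSL1 RNAi. Members with many reads include some that were not called. snoRNA:U3:9B was at 9115, 7714 and 9842 against 12649, 11142 and 7451 (0.20, SE 0.18, adjusted p = 0.311) and snoRNA:Psi28S-291 at 10352, 10634 and 16616 against 14282, 16408 and 16403 (0.36, SE 0.17, adjusted p = 0.0688), both with overlapping groups. snoRNA:Me28S-A1322 was at 34.5, 30.7 and 51.3 against 497, 552 and 408 (3.63, SE 0.22, adjusted p = 5.25e-07).

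Most fly snoRNAs lie in introns of host genes, so their reads cannot be told apart from unspliced host RNA. Uhg genes carry snoRNAs in their introns, and of 7 tested 2 rose and 1, Uhg3, fell (1015, 1080 and 987 against 324, 570 and 395, -1.29, SE 0.18, adjusted p = 0.000120). Medians of the snoRNAs were 0.55 in NSL2 RNAi and 1.16 in NSL3 RNAi, over the same white RNAi libraries. At a minimum of 2 on the log2 scale 23 in place of 108 snoRNAs would be called higher. Without any minimum mean 136 of 240 snoRNAs were called higher and 1 lower.

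Spliceosomal and related snRNAs rose in 3 and fell in 3 of 19 tested of 32. Each share was 15.8 percent, under the 31.8 percent higher and 20.4 percent lower of all genes. snRNA:7SKa, which restrains the elongation kinase P-TEFb, was at 41671, 44750 and 47416 against 117863, 99414 and 119262 (1.33, SE 0.09, adjusted p = 1.16e-06). The calls on snRNA:U2:34ABa and snRNA:U5:14B are uncertain, since near-identical copies share reads, the U2 copy was at 2233, 16.2 and 1783 in white RNAi, and both calls were lost when single libraries were left out. Of 238 miRNA genes 16 reached the minimum mean and were higher, led by mir-4967 (1.72, 1.62 and 3.48 against 44.0, 54.1 and 58.3, 4.06, SE 0.35, adjusted p = 4.87e-06). These are total RNA libraries, so such a row gives reads over the annotated miRNA gene and not the mature miRNA.

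Outside the lists, the lowest log2 fold changes after Cyp6a19 included Syt4 and nAChRalpha4, genes of neuronal signalling. The neuronal marker list went the other way, with 6 of 8 tested higher and 0 lower. Syt4, a calcium sensor of vesicle release, was at 346, 413 and 471 in white RNAi and 3.67, 4.92 and 8.63 in NSL1 RNAi (-5.99, SE 0.30, adjusted p = 1.75e-07) and was at -8.43 in NSL2 RNAi and -5.85 in NSL3 RNAi. nAChRalpha4, a nicotinic receptor subunit, was at 674, 646 and 619 against 12.2, 30.7 and 25.9 (-4.85, SE 0.30, adjusted p = 6.41e-07), with -1.93 and -3.11 in the other knockdowns. Patsas, a palmitoyltransferase family member, was at 267, 258 and 211 against 4.89, 16 and 5.40 (-4.83, SE 0.40, adjusted p = 3.69e-06). The uncharacterised genes CG5568, CG18586, CG34406, CG13609, CG15047, CG4676 and CG13982 complete the 12 lowest with dhd, at -5.53 to -4.30. For all 12 the groups did not overlap.

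The largest rises outside muscle, fat body and hemocyte markers began with Cyp4p2. Drs, the antifungal peptide drosomycin, was at 1.72, 5.66 and 9.57 in white RNAi and at 872, 2296 and 7540 in NSL1 RNAi (8.75, SE 0.75, adjusted p = 4.83e-06), the widest spread among the NSL1 RNAi values named in this paragraph. fit, a satiety peptide of the fat body, was at 0.862, 1.62 and 2.61 against 1298, 419 and 1240 (8.40, SE 0.46, adjusted p = 2.90e-07), and stan, the cadherin Flamingo of planar polarity, at 3.45, 3.23 and 9.57 against 1637, 1261 and 2074 (8.12, SE 0.36, adjusted p = 9.98e-08). Ldsdh1, a lipid droplet dehydrogenase, was at 2.58, 3.23 and 1.74 against 902, 723 and 658 (7.77, SE 0.25, adjusted p = 2.14e-08). Hsp67Bc, Osi19, gNacalpha, Obp99b, CG9411, CG13403 and RpL22-like complete the 12 highest, and in none did the groups overlap.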

How the data were processed

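RNA of ovaries was sequenced as stranded total RNA after ribosomal RNA depletion. According to the study's methods, the authors removed ribosomal reads with bowtie2, aligned with STAR to dm3 in piPipes, counted with featureCounts or eXpress and normalized with DESeq2. Versions and the strand used in counting are not given in the sources used here. The deposited signal is normalized reads per feature, that is, reads divided by a size factor per library. Every nonzero value came out as whole reads within 1e-06 (100 percent). Spike-in size factors are described by the authors, but the table holds 0 ERCC rows. Columns with the authors' own fold changes and p-values were not used. Library values left unused numbered 0.

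Of 72525 rows 15340 were annotated genes, of which 14896 names matched a current symbol and 444 were kept as written. log2(value + 1) of features with a mean of at least 10 was fitted with limma 3.58.1 (trend, R 4.3.3) on 3 libraries per group, with Benjamini-Hochberg adjustment over 9302 features including transposons. All adjusted p-values in the text come from this limma fit, and fold changes on this scale understate those of low genes. Alternatives were other scalings, pseudocounts, filters and fold minimums, edgeR 4.0.16 and DESeq2 1.42.0 on the recovered reads, a replicate block and leaving out each library. Counting intervals are 95% intervals and, like floors of 3 reads over a group, cover counting error only. The fit was tested on simulated data. Genes named are the 12 highest and lowest outside the muscle, fat body and hemocyte lists, up to 4 rises, 4 falls and 3 uncalled members per list, and 25 chosen after their values were seen. The members and lists were chosen with earlier results of these data known. Promoter motifs, planned as a description, were not run, and no sequence is shown. One result on a ribosomal protein gene is not reported here.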

Additional observations from a re-analysis of the deposited data

How the results depend on the processing

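The counts of 2887 genes higher and 1854 lower depended most on the filter and the fold minimum. Without a filter on low values 4404 genes were higher, and with a minimum mean of 50 there were 1806. With no fold minimum 4363 were lower and nsl1 (wah), at -0.88, was called, and beyond 2 on the log2 scale 321 were lower. Counts were 3019 and 1520 with the median of ratios, 3012 and 1526 with TMM, 2846 and 1630 with edgeR, and 2896 and 1439 with DESeq2. Leaving out 1 library gave 2715 to 3010 higher, 1807 to 1973 lower and -0.92 to -0.85 for nsl1. Column numbers do not pair the libraries (same-number correlations of deviations -0.007, -0.137 and -0.097), and with the replicate block there were 2889 higher, 1854 lower and -0.88 for nsl1. With DESeq2 genes called lower numbered 5 in place of 8 for the nuclear pore, 4 in place of 7 for nuclear transport and 4 in place of 7 for the tRNA synthetases. With a minimum mean of 50 those called higher numbered 33 in place of 51 for P450, 9 in place of 15 for UGT, 6 in place of 12 for GST, 5 in place of 11 for odorant binding proteins, 2 in place of 11 for cuticle proteins and 1 in place of 16 for miRNA genes. Of autophagy genes called lower, 2 in all, there were 0 without NSL1 RNAi replicate 2 or with DESeq2 and 1 without white RNAi replicate 3. Without NSL1 RNAi replicate 2 there was 1 snoRNA called lower in place of 0, without NSL1 RNAi replicate 3 there was 1 polymerase III gene in place of 2, without white RNAi replicate 2 there were 0 other tRNA synthetases in place of 1, and without white RNAi replicate 3 there were 4 Uhg genes called higher in place of 2. The promoter motif description and its window alternative were not run. The depth of the libraries limits the genes under the minimum mean, and the cause of differences between settings was not tested.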

Other observations

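Gene families outside the lists, picked after their values had been seen, also differed. Of 12 tested genes named Hsp, which encode heat shock chaperones, 7 were higher and 2 lower. Hsp68 was at 78.4, 81.6 and 80 normalized reads in white RNAi and 4813, 5944 and 9253 in NSL1 RNAi (log2 fold change 6.31, SE 0.20, adjusted p = 2.32e-08), and Hsp23 was at 69.8, 90.5 and 58.3 against 3118, 3410 and 4500 (5.64, SE 0.18, adjusted p = 2.42e-08). Hsp26, a small heat shock protein, was abundant in white RNAi and lower in NSL1 RNAi, at 28270, 28362 and 23755 against 6824, 7402 and 9357 (-1.78, SE 0.12, adjusted p = 1.01e-06). The groups overlapped in none of these 3 genes.

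Of 6 genes named Eip, for induction by the steroid hormone ecdysone, 5 were higher and 0 lower. Eip75B, a nuclear receptor, was at 587, 611 and 778 against 5402, 6477 and 5237 (3.12, SE 0.12, adjusted p = 4.99e-08). The ecdysone receptor EcR was not called, at 1931, 1702 and 1500 against 2078, 2283 and 2023 (0.32, SE 0.09, adjusted p = 0.0105), and its groups did not overlap. Of 23 Mediator genes named MED, 8 were lower and 0 higher with a median of -0.96, and of 13 peroxisome genes named Pex, 5 were lower and 0 higher with a median of -0.85. Of 80 long noncoding RNAs tested, 57 were higher and 10 lower, with a median of 2.22. A gene with few reads in white RNAi reaches the minimum mean only when it is high in NSL1 RNAi. The counts of these families therefore describe the members that passed. All of these counts stand beside 31.8 percent of all genes higher and 20.4 percent lower.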
